A study of Homo sapiens with 6 samples.

Results

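Aminoacyl-tRNA synthetases were followed in breast cancer cells held under CDK4/6 inhibition. The members were 35 genes of the 60656 in the count table, found by matching each Ensembl identifier, without its version, to a fixed list of symbols. Of these, 19 encode enzymes of the cytosol (symbols ending in 1, with FARSA and FARSB, the chains of the phenylalanine enzyme) and 16 encode enzymes of the mitochondrion (symbols ending in 2). GARS1 and KARS1 were counted as cytosolic, although each of these genes is known to supply both compartments. The RNA came from parental ZR-75-1 cells, an oestrogen receptor-positive human breast cancer line, grown for 4 days with the solvent DMSO or with 500 nM abemaciclib, an inhibitor of the cyclin-dependent kinases CDK4 and CDK6. Each group had 3 libraries, which the study describes as independent biological replicates of this 1 line. The rule for members used symbols and not measured values, but it was set with earlier results of these data known. Shares of members called are therefore descriptions and carry no test of the set. The RB1 knockout cells of the series were not analysed here.

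Each synthetase joins an amino acid to the tRNAs that carry its anticodons, the step at which the genetic code is read into protein. The enzymes fall into class I and class II by the fold of the catalytic domain, and several cytosolic ones sit in a large multi-synthetase complex held together by the scaffold proteins AIMP1, AIMP2 and EEF1E1. A separate, nuclear-encoded set is imported into mitochondria and charges the tRNAs used to make the subunits of the respiratory chain that mitochondrial DNA encodes. Many of the cytosolic genes, and few of the mitochondrial ones, are known targets of ATF4, the transcription factor of the integrated stress response, which is made when amino acids run short or the endoplasmic reticulum is under stress. ATF4 binds, together with a C/EBP protein, to a composite site called the C/EBP–ATF response element, abbreviated CARE below.

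The 6 libraries held 3317860 to 4013156 counts each and no pair was a duplicate. They were made with a 3′ mRNA kit, so a count stands for the end of a transcript whatever its length. Values are given as CPM (counts scaled to a common total by TMM) and are therefore shares of a library and not amounts per cell. In bulk RNA, fewer cells of one kind and less RNA per cell cannot be told apart. MKI67, a marker of cycling cells, went from 525.8 ± 31.4 to 5.00 ± 2.28 CPM (DMSO and abemaciclib, SD, n = 3 in each). All 8 luminal epithelial markers were detected, with a summed level of 7478 to 7935 CPM with DMSO and 8520 to 9512 CPM with abemaciclib. Of the fibroblast markers, 3 of 5 (COL1A2, COL3A1 and PDGFRB) were at 0 in all 6 libraries, while COL1A1 was at 10.1 to 15.8 CPM in every library of both groups and DCN had 1 count in 1 library. Of the immune markers, 4 of 5 (PTPRC, CD3E, CD14 and MS4A1) were at 0 throughout and CD68 had 1 count in 1 library. Of the endothelial markers, 3 of 4 (PECAM1, CDH5 and KDR) were at 0 throughout and VWF had 0 to 5 counts per library. Of the whole table, 10863 genes had enough counts for a test.

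Of the cytosolic synthetase transcripts, 8 fell with abemaciclib and 0 rose, while 1 mitochondrial transcript rose and 0 fell. All 19 cytosolic genes were tested, and 8 of them (AARS1, CARS1, EPRS1, GARS1, IARS1, MARS1, TARS1 and YARS1) passed the threshold downwards (edgeR's quasi-likelihood test, Benjamini–Hochberg adjusted P under 0.05), with falls between 22.4% for EPRS1 and 47.8% for MARS1. This was 42.1% of the cytosolic genes, where 13.3% of all genes tested were lower. No cytosolic gene was higher by edgeR or by DESeq2 (1, QARS1, was higher at an unadjusted P under 0.05), where 12.5% of all genes tested were higher. The median log2 change (log2 of the fold change, abemaciclib over DMSO) was −0.26 over the cytosolic genes and −0.002 over all genes tested. Of the 16 mitochondrial genes, 14 had enough counts for a test, and 1 of these, EARS2, was higher and 0 were lower (0 also at an unadjusted P under 0.05). The mitochondrial median was 0.13, and the difference between the sets was not itself tested. Over both sets, 9 of the 33 genes tested were called, against 25.7% of all genes. The count of 8 became 5 without abemaciclib replicate 1, when EPRS1, IARS1 and YARS1 were no longer called, and 9 without abemaciclib replicate 3, when SARS1 was added.

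**Figure D1:**
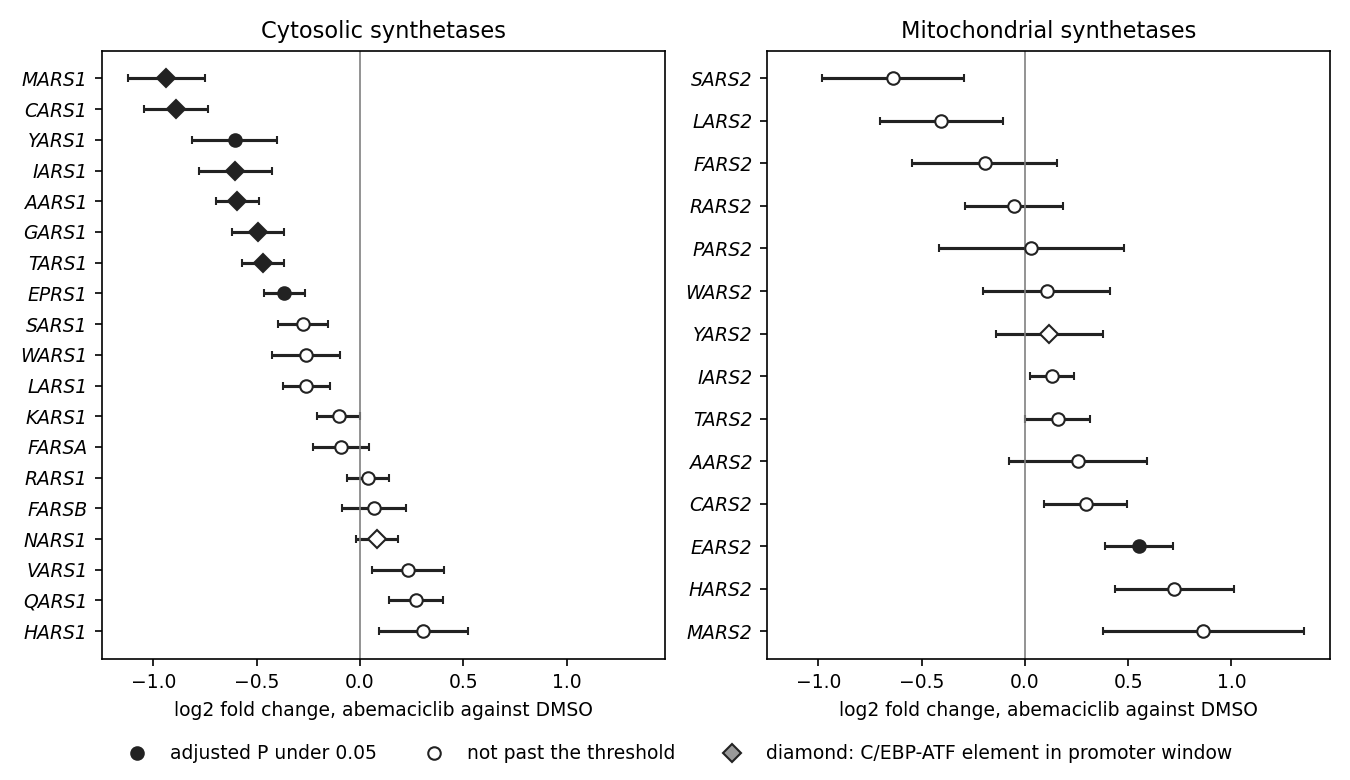
Log2 fold change of each tested synthetase gene, abemaciclib against DMSO (horizontal axis), with bars of 1 standard error from edgeR, cytosolic genes on the left and mitochondrial genes on the right. Filled symbols passed an adjusted P under 0.05 and diamonds mark a C/EBP–ATF element in the promoter window. The 8 cytosolic genes called lower lie between −0.94 and −0.37, and EARS2, at 0.55, is the 1 mitochondrial gene called.

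The promoters of the synthetase genes were searched for chosen motifs only, of which the CARE came first. Many of the cytosolic genes are known targets of ATF4, so matches in them are not independent evidence. RefSeq windows on GRCh38.p14, reaching from 250 bases before each start site to 50 after it, were at hand for 30 of the 35 genes, and LARS1, VARS1, YARS1, AARS2 and VARS2 had none. These 30 genes had 39 windows, and a gene was counted as holding a motif if any of its windows did. The CARE was searched as TGATGNAA on both strands. The stretches around each match in the cytosolic genes are shown because 6 of the 7 genes that fell and have a window hold one. Each is written 5′ to 3′ on the strand of its gene, with the element in capitals.
MARS1: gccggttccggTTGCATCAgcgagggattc
CARS1: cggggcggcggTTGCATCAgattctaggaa
IARS1: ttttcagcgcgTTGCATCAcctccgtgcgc
TARS1: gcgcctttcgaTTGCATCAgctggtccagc
AARS1: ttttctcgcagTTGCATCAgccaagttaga
GARS1: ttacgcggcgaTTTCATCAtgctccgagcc
NARS1: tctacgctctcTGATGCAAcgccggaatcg

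These stretches lie at chr12:57488053-57488082 (MARS1, plus strand), chr11:3057407-3057436 (CARS1, minus), chr9:92293692-92293721 (IARS1, minus), chr5:33440956-33440985 (TARS1, plus), chr16:70289675-70289704 (AARS1, minus), chr7:30594834-30594863 (GARS1, plus) and chr18:57621804-57621833 (NARS1, minus). In the 6 genes that fell, the element ran on the strand opposite to the gene, and 5 of them carried the same 8 letters, TTGCATCA, while GARS1 had TTTCATCA. NARS1 held the same letters as those 5 on its own strand, as TGATGCAA, starting at base 15 after its start site. The RefSeq start site of a window can lie inside the gene bounds given below. Counted from that start site, the element began at base −187 in AARS1, −33 in GARS1, −13 in IARS1, −4 in MARS1, −2 in CARS1 and 3 in TARS1.

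In all, 7 of the 16 cytosolic genes with a window held a CARE, or 43.8%, against 4.46% of all 27305 genes with a RefSeq window and 2.36% of the 8586 that were also tested. Among the cytosolic genes that did not pass the threshold, 1 of 9 (NARS1) held a match. The 7 genes with a match had a median log2 change of −0.59, and the 9 without had a median of −0.09. This contrast was not tested, as genes are not replicates of a treatment. The share with a CARE among all genes called lower was not counted. Among the mitochondrial genes, 1 of 14 (YARS2) held a match, or 7.14%. The exceptions in both directions were EPRS1, which fell with no match in its window, and NARS1, which held a match and had a log2 change of 0.08. A match describes letters in a window and not binding, which was not measured in these libraries.

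Among the class I enzymes, 4 of 9 were lower. MARS1, the methionine enzyme, which serves both the start codon and internal methionines, was at 60.6, 43.1 and 56.3 CPM with DMSO and at 20.3, 29.1 and 33.8 CPM with abemaciclib. It had the largest fall of the 19 cytosolic genes, with a log2 change of −0.94 (standard error 0.19, edgeR adjusted P = 0.00037), and the groups did not overlap. The gene lies on chromosome 12 of GRCh38 from 57475445 to 57517569, and its 3′ end overlaps the 3′ end of DDIT3, a target of ATF4, on the opposite strand. Before scaling, DDIT3 held a mean of 41 counts with DMSO and 9.33 with abemaciclib, and MARS1 a mean of 180 and 103.3. Because the sources used here do not state whether counting used the strand, the share of each gene in the overlap is uncertain.

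CARS1, the cysteine enzyme (chromosome 11 from 3000922 to 3057613), was at 67.3, 69.2 and 88.1 CPM with DMSO and at 33.3, 43.9 and 43.5 CPM with abemaciclib. Every abemaciclib library lay below every DMSO library, and the log2 change was −0.89 (standard error 0.16, edgeR adjusted P = 6.92e-05). IARS1, the isoleucine enzyme (chromosome 9 from 92210207 to 92293854), was at 47.28, 43.96 and 39.68 CPM with DMSO and at 23.6, 33.3 and 28.9 CPM with abemaciclib. Its log2 change was −0.60 (standard error 0.18, edgeR adjusted P = 0.0123), and the call was lost without DMSO replicate 1 or abemaciclib replicate 1, with adjusted P up to 0.0667. YARS1, the tyrosine enzyme (chromosome 1 from 32775237 to 32818031), was at 38.0, 32.1 and 30.6 CPM with DMSO and at 16.3, 22.0 and 27.6 CPM with abemaciclib. This was the least firm of the falls, with a log2 change of −0.61 (standard error 0.21, edgeR adjusted P = 0.0297), which was not called by DESeq2 or in 4 of the 6 fits that left out 1 library (adjusted P up to 0.147).

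Among the class II enzymes, 3 of 9 were lower. AARS1, the alanine enzyme (chromosome 16 from 70251983 to 70289707), was at 249.1, 237.9 and 228.7 CPM with DMSO and at 159.1, 169.7 and 145.4 CPM with abemaciclib. The groups stood well apart, with a log2 change of −0.59 (standard error 0.10, edgeR adjusted P = 6.25e-05). TARS1, the threonine enzyme (chromosome 5 from 33440696 to 33468091), was at 297.6, 255.8 and 293.8 CPM with DMSO and at 219.0, 192.2 and 200.5 CPM with abemaciclib, with a log2 change of −0.47 (standard error 0.10, edgeR adjusted P = 0.000806). GARS1, the glycine enzyme (chromosome 7 from 30580533 to 30634033), was at 87.9, 95.7 and 94.5 CPM with DMSO and at 63.8, 68.6 and 64.8 CPM with abemaciclib, with a log2 change of −0.49 (standard error 0.13, edgeR adjusted P = 0.00389). In both genes every abemaciclib library lay below every DMSO library.

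EPRS1 joins a class I glutamate enzyme and a class II proline enzyme in 1 protein and was the most highly counted member. It was at 335.9, 323.8 and 343.5 CPM with DMSO and at 229.0, 263.5 and 285.1 CPM with abemaciclib. The groups did not overlap, and the log2 change was −0.37 (standard error 0.10, edgeR adjusted P = 0.00687). Without abemaciclib replicate 1, the lowest library, the log2 change was −0.28 and the adjusted P was 0.0538. By membership of the multi-synthetase complex, 3 of 7 genes inside it (EPRS1, IARS1 and MARS1) and 5 of 12 outside it were lower, with medians of −0.26 and −0.27. These counts cover the listed members, and not every synthetase of the complex was analysed here. Without the dual-compartment genes GARS1 and KARS1, 7 of 17 cytosolic genes were lower.

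**Figure D2:**
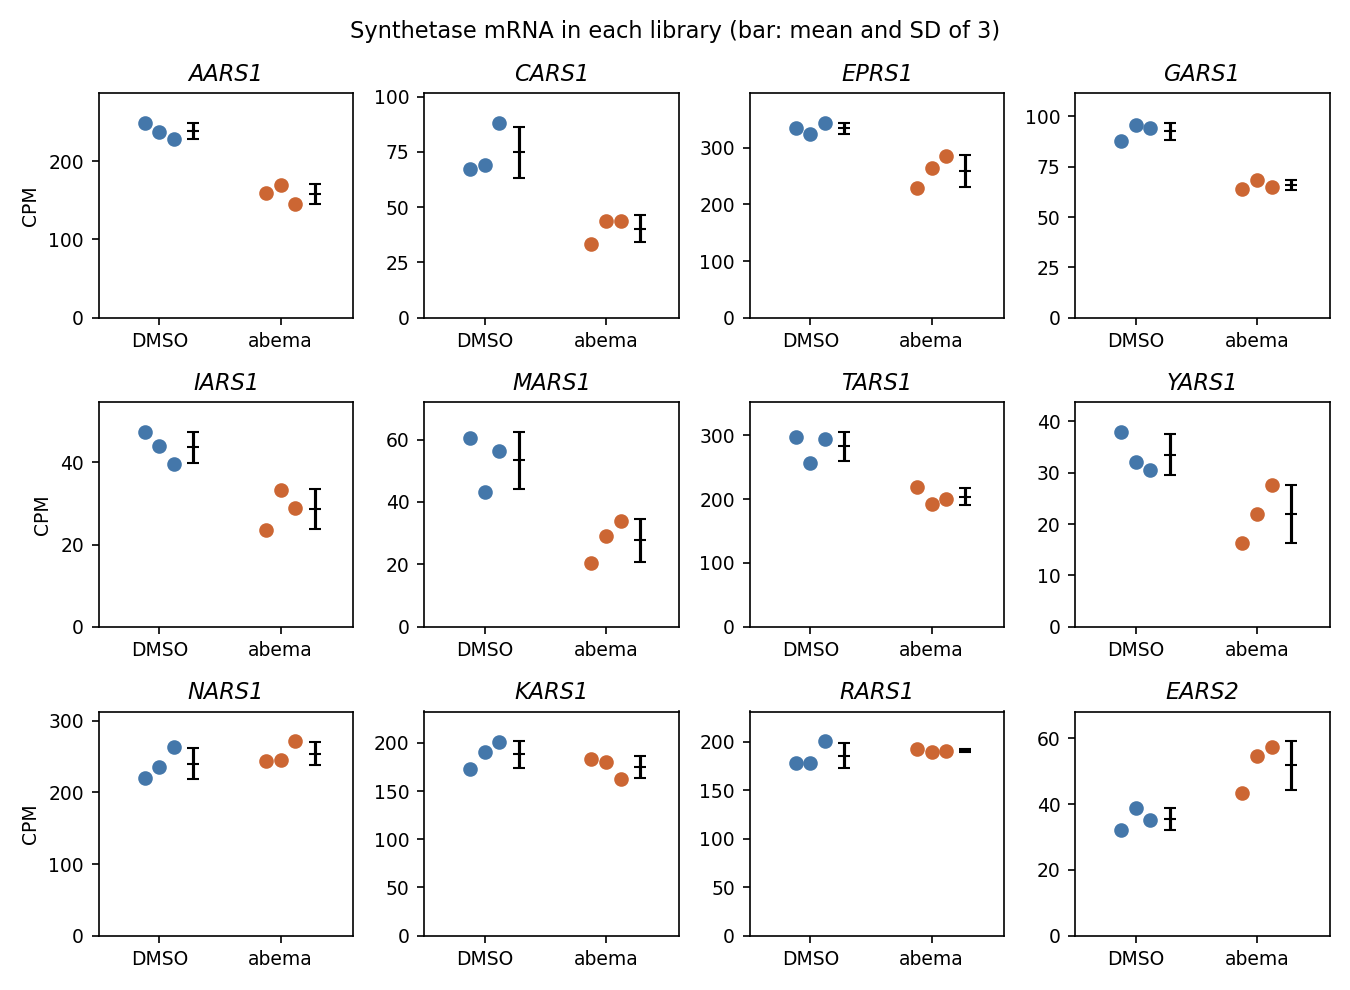
Level of 12 synthetase genes in CPM (vertical axes from 0, with a scale of their own for each gene), 1 point per library, DMSO in blue and abemaciclib (abema) in orange, with bars for the mean and SD of 3 libraries. The groups do not overlap in the 9 called genes, such as AARS1 (228.7 to 249.1 CPM against 145.4 to 169.7 CPM), and overlap in NARS1, KARS1 and RARS1.

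The other 11 cytosolic genes did not pass the threshold. LARS1, the leucine enzyme, was at 122.7, 130.4 and 140.8 CPM with DMSO and at 105.9, 116.2 and 106.7 CPM with abemaciclib, with no overlap, and its log2 change was −0.26 (standard error 0.11, edgeR adjusted P = 0.0899). SARS1, for serine and selenocysteine tRNAs, and WARS1, for tryptophan, also had every abemaciclib library below every DMSO library, with log2 changes of −0.28 (edgeR, adjusted P = 0.0951) and −0.26 (edgeR, adjusted P = 0.265). In all, 11 of the 19 cytosolic genes were lower without overlap and 0 were higher without overlap, where 20.1% and 19.1% of all genes tested were so.

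Among the abundant members not called were the asparagine, arginine and lysine enzymes, with log2 changes between −0.10 and 0.08. NARS1, the asparagine enzyme, was at 220.7, 235.9 and 263.5 CPM with DMSO and at 244.4, 245.5 and 272.1 CPM with abemaciclib (log2 change 0.08, standard error 0.10, edgeR adjusted P = 0.612). RARS1, the arginine enzyme, was at 178.4, 177.9 and 201.1 CPM with DMSO and at 192.4, 190.0 and 190.2 CPM with abemaciclib (log2 change 0.04, standard error 0.10, edgeR adjusted P = 0.828). KARS1, the lysine enzyme of both compartments, was at 172.9, 190.1 and 201.1 CPM with DMSO and at 183.3, 179.9 and 162.1 CPM with abemaciclib (log2 change −0.10, standard error 0.11, edgeR adjusted P = 0.527). In all 3 the groups overlapped, and the standard errors were of the size found for AARS1 and EPRS1. FARSA and FARSB, which make up 1 enzyme, had log2 changes of −0.09 and 0.07.

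QARS1, the glutamine enzyme, was at 87.9, 63.9 and 73.6 CPM with DMSO and at 92.9, 86.1 and 93.2 CPM with abemaciclib, with a log2 change of 0.27 (standard error 0.13, edgeR adjusted P = 0.138). The groups overlapped, since the highest DMSO library lay above the lowest abemaciclib library. VARS1, the valine enzyme, had a log2 change of 0.23, with 71.1 CPM in abemaciclib replicate 1 and 39.7 and 50.6 CPM in the other abemaciclib libraries, and without that replicate it was −0.01. HARS1, the histidine enzyme, had a log2 change of 0.31 (standard error 0.22, edgeR adjusted P = 0.328). Its 3′ end overlaps WDR55 on the opposite strand, whose mean counts were 128 with DMSO and 162 with abemaciclib.

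The mitochondrial genes were counted less, with a median over genes of 42.3 counts per library against 293.7 for the cytosolic genes, and the median standard error of the log2 change was 0.29 against 0.13. A fall of the size seen in the cytosolic genes was therefore harder to detect in most of them. EARS2, the mitochondrial glutamate enzyme (chromosome 16 from 23520754 to 23557731), was at 32.20, 38.91 and 35.14 CPM with DMSO and at 43.3, 54.5 and 57.6 CPM with abemaciclib. The groups did not overlap, with a log2 change of 0.55 (standard error 0.17, edgeR adjusted P = 0.0137). The 1 gene called was 7.14% of those tested, below the 12.5% of all genes that were higher, and EARS2 was no longer called without DMSO replicate 1 or abemaciclib replicate 2 (adjusted P up to 0.072).

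IARS2, the mitochondrial isoleucine enzyme and the most highly counted of this set, was at 165.0, 147.9 and 162.0 CPM with DMSO and at 182.4, 170.2 and 167.8 CPM with abemaciclib. The groups did not overlap, yet the difference was small (log2 change 0.13, standard error 0.10, edgeR adjusted P = 0.397). With a standard error as narrow as those of the abundant cytosolic genes, its log2 change lay on the other side of 0 from that of IARS1. HARS2, the mitochondrial histidine enzyme, was at 10.4, 8.91 and 8.78 CPM with DMSO and at 14.52, 12.09 and 19.99 CPM with abemaciclib (log2 change 0.72, standard error 0.29, edgeR adjusted P = 0.0646). Its 3′ end overlaps ZMAT2 on the same strand, which held a mean of 1068 counts with DMSO and 1266 with abemaciclib against 31.7 and 57 for HARS2, so its counts are uncertain. HARS1 and HARS2 lie head to head on chromosome 5, with starts at 140691537 and 140691430, and neither passed the threshold.

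MARS2, the mitochondrial methionine enzyme, was at 4.06, 3.27 and 1.51 CPM with DMSO and at 5.14, 5.67 and 5.40 CPM with abemaciclib (log2 change 0.86, standard error 0.49, edgeR adjusted P = 0.207). SARS2, the mitochondrial serine enzyme, was the 1 mitochondrial gene with every abemaciclib library below every DMSO library, at 9.57, 9.21 and 13.9 CPM against 5.14, 8.88 and 6.76 CPM (log2 change −0.64, standard error 0.34, edgeR adjusted P = 0.183). The 3′ end of SARS2 overlaps another annotated gene on the same strand, with a mean of 0 counts in both groups, so its counts are uncertain. In all, 4 of the 14 tested genes (EARS2, HARS2, IARS2 and MARS2) were higher without overlap and 1 was lower, against the 19.1% and 20.1% of all genes given above. The other genes tested (AARS2, CARS2, FARS2, LARS2, PARS2, RARS2, TARS2, WARS2 and YARS2) had log2 changes from −0.40 for LARS2 to 0.30 for CARS2. NARS2 had 7 to 14 counts per library, too few for a test. VARS2 had 0 counts in all 6 libraries, which allows a level of up to 0.740 to 0.909 CPM by counting error alone. Its 3′ end overlaps another annotated gene on the same strand that was also at 0, and the part of this overlap in the 0 was not tested. The translation factor genes EEF1G and TSFM were likewise at 0 in all 6 libraries. Each also overlaps a gene at 0 on the same strand, while SARS2, with an overlap of this kind, was counted. The CPM limit for VARS2 takes no account of reads lost through such overlaps.

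For 14 amino acids the listed members hold both a cytosolic and a mitochondrial enzyme, and 13 of these pairs could be compared, the valine pair being left out with VARS2 at 0. For each library, the log2 ratio of the cytosolic to the mitochondrial gene was taken, with 2 counts added to each. The scaling of the library then cancels, except in part where counts are low. The ratio was lower in every abemaciclib library than in every DMSO library for 7 pairs (alanine, cysteine, histidine, isoleucine, methionine, threonine and tyrosine), higher without overlap for 0, and overlapping for 6. In the tyrosine, threonine and histidine pairs the gap between the groups was narrow. How often ratios of other genes separate in this way was not counted, so 7 of 13 has no reference share. The median change over the 13 pairs was −0.38. For each of the 7, the exact permutation test gave P = 0.1, two-sided, the smallest that 3 libraries against 3 allow, and 0.186 after adjustment over the 13 pairs, so the design could not reach 0.05 for a single pair.

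The cysteine pair showed the change most evenly. The log2 ratio of CARS1 to CARS2 was 1.43, 1.69 and 1.66 with DMSO and 0.47, 0.42 and 0.39 with abemaciclib, a change of −1.16. The methionine pair changed by −1.77, where the low counts of MARS2 enter. The alanine pair changed by −0.84, the isoleucine and tyrosine pairs by −0.74 each, the threonine pair by −0.60 and the histidine pair by −0.35. In the histidine pair both genes had a log2 change above 0, 0.31 for HARS1 and 0.72 for HARS2. The asparagine pair changed by 0.00, and the serine pair by 0.34 in the other direction (exact permutation test, two-sided, P = 0.3).

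**Figure D3:**
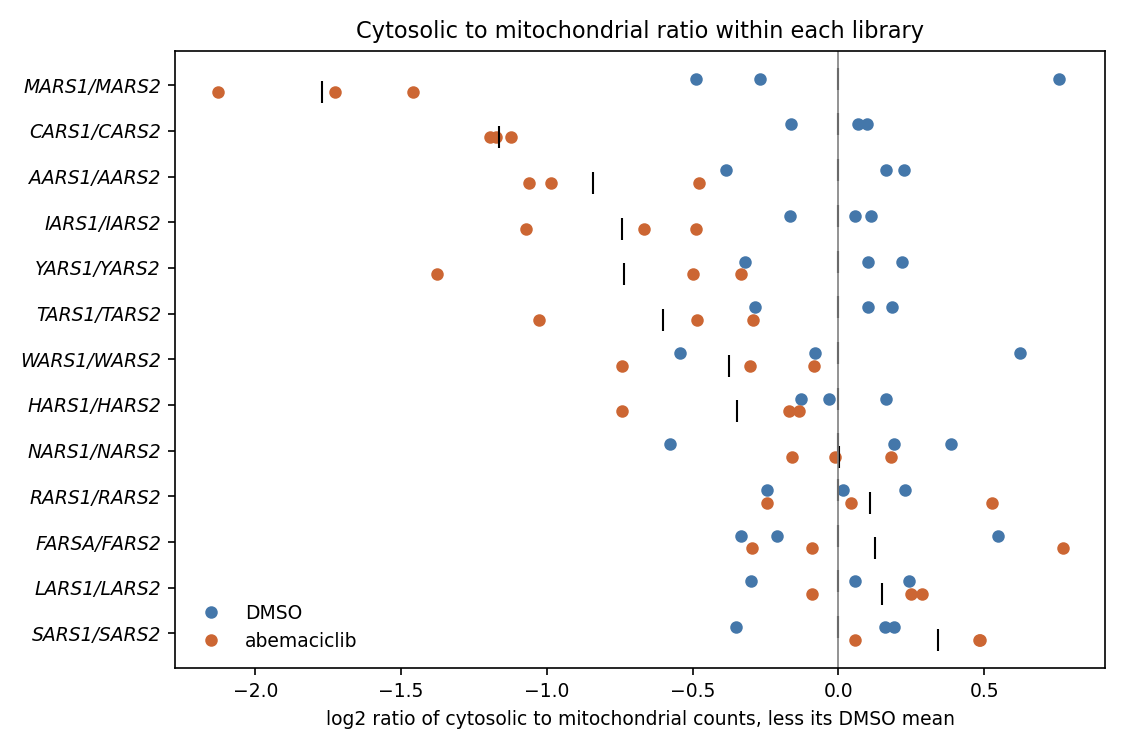
Log2 ratio of cytosolic to mitochondrial counts for 13 amino acids, less the mean of the DMSO libraries of that pair, 1 point per library, DMSO in blue and abemaciclib in orange, with a tick at each group mean. The abemaciclib means run from −1.77 for the methionine pair to 0.34 for the serine pair, and 7 pairs are lower without overlap, with a narrow gap in the tyrosine, threonine and histidine pairs.

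Averaged over genes on the log2 CPM scale, the cytosolic genes stood at 6.56, 6.47 and 6.57 with DMSO and at 6.22, 6.31 and 6.28 with abemaciclib. The mitochondrial genes with any count stood at 3.82, 3.93 and 3.76 with DMSO and at 3.86, 3.96 and 4.05 with abemaciclib. The difference between the sets went from 2.69 ± 0.14 with DMSO to 2.31 ± 0.08 with abemaciclib (SD, n = 3 in each), a change of −0.38, of which the cytosolic set gave −0.26. These means describe the members and carry no test.

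Genes that work beside the synthetases were taken from 5 further lists. The 10 partners were scaffolds of the complex, the mitochondrial glutamine amidotransferase, the enzymes of selenocysteine tRNA, MTFMT and TARS3. TARS3 is a threonine synthetase gene outside the member list. Of the partners, 9 were tested, with 0 higher and 0 lower by edgeR (1 higher and 1 lower at an unadjusted P under 0.05). Their median log2 change was −0.16. The scaffold genes AIMP1, AIMP2 and EEF1E1 had log2 changes of −0.22, −0.16 and −0.18. Of 32 genes of tRNA processing and modification, 29 were tested, and 2 were lower (6.90%) and 1 was higher (3.45%), with a median of −0.14. Both shares lie below the 13.3% and 12.5% of all genes tested. The methyltransferase gene TRMT5 had a log2 change of −1.23 (edgeR, adjusted P = 5.06e-08), the splicing endonuclease subunit gene TSEN54 −0.62 (edgeR, adjusted P = 0.00777) and the methyltransferase gene TRMT1 1.13 (edgeR, adjusted P = 0.0278). TRMT1 was not called by DESeq2 or without DMSO replicate 2, DMSO replicate 3 or abemaciclib replicate 1 (adjusted P up to 0.115).

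Genes of the steps after charging were called in both directions. Of 9 genes of cytosolic elongation and release, 8 were tested. Of these, 2 were higher (25%, against 12.5% of all genes) and 1 was lower (12.5%, near the 13.3% of all genes). EEF1A1, which delivers charged tRNA to the ribosome, had a log2 change of 0.39 (edgeR, adjusted P = 0.00268), and EEF2, which moves the ribosome along, had 0.42 (edgeR, adjusted P = 0.000454). EEF1D, a subunit of the exchange factor, had −0.39 (edgeR, adjusted P = 0.0255), but its groups overlapped. The call was not made by DESeq2 or when replicate 1 or replicate 2 of either group was left out (adjusted P up to 0.335). Of 12 mitochondrial translation factors, 11 were tested, and 1 was higher (9.09%, below the 12.5% of all genes) and 0 were lower (0 lower at an unadjusted P under 0.05). This was TUFM, the mitochondrial elongation factor that delivers charged tRNA, which rose from 205.2 ± 5.45 CPM to 282.1 ± 18.4 CPM (each SD, n = 3), with a log2 change of 0.46 (edgeR, adjusted P = 0.000766).

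Among the lists described here, the median furthest from 0 was that of ATF4 response genes other than the synthetases. Of 25 such genes, 22 were tested, and 18 were lower (81.8%) and 1, STC2, was higher, with a median log2 change of −0.99. The list was written with a fall of such genes in these libraries already known, so its direction is not independent evidence. ATF4 itself was at 169.4, 134.6 and 165.1 CPM with DMSO and at 52.9, 46.6 and 57.6 CPM with abemaciclib, a larger fall than that of any synthetase gene on the log2 scale (−1.58, edgeR adjusted P = 1.03e-10). Among its targets, SLC7A5, a transporter of large neutral amino acids, had a log2 change of −2.40 (edgeR, adjusted P = 7.06e-12) and TRIB3, a pseudokinase, −1.57 (edgeR, adjusted P = 2.74e-08). In this list, 7 of the 20 genes with a RefSeq window held a CARE (35%). The part of ATF4 in the fall of the synthetase transcripts was not tested, and protein and tRNA charging were not analysed here.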

How the data were processed

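Single-end reads from 3′ mRNA libraries were trimmed by the authors, aligned to hg38 with STAR 2.7.5b and assigned to GENCODE genes with featureCounts 2.0.1. The deposited counts are raw, with no normalization and no filter. The setting for strand is not given in the sources used here. Libraries were grouped by the treatment in their labels, 3 per group.

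Counts were filtered with filterByExpr, scaled by TMM and compared with glmQLFit and glmQLFTest of edgeR 4.0.16 (R 4.3.3), P-values being adjusted by Benjamini–Hochberg over the 10863 genes tested, with a threshold of 0.05. The standard error is the log2 fold change divided by the square root of F. Gene means over log2 CPM and the pair ratios used a prior count of 2. Identifiers of 60401 genes had a symbol. Coordinates and overlaps of exons within 500 bases of a 3′ end came from GENCODE release 44 on GRCh38. Processed pseudogenes of the members held 0 counts.

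The members and gene lists were chosen with earlier results of these data known. Values per library are given for called members whose log2 change was 0.5 or more in size, the 5 most abundant members not called, and others named after their values were seen. Total counts were 3317860 to 4013156, and 3 counts, the limit that a count of 0 allows, were 0.740 to 0.909 CPM (TMM-scaled), counting error only. On simulated counts with 200 changed genes, the test recovered 85.3% of changes of 1 and 100% of changes of 2 on the log2 scale. Of the 189 genes called there, 11 were unchanged. The simulation used 1 dispersion for all genes and no changes below 1. All called synthetase changes were below 1 in size, so their recovery was not measured. Replicate numbers did not pair the libraries (correlations of −0.043, 0.007 and −0.089 between same-numbered deviations). Alternatives were DESeq2 1.42.0, its size factors, total counts only, other filters and priors, a replicate block, members left out and each library left out.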

Additional observations from a re-analysis of the deposited data

How the results depend on the processing

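The comparisons gave 244 values under alternatives, of which 228 were the same and 16 moved, and of 559 values of single genes, 524 were the same, 19 lost a call, 2 gained one and 14 changed sign. The calls of AARS1, CARS1, GARS1, MARS1 and TARS1 held under all 12 alternatives run for them. The count of cytosolic genes lower was 5 to 9 with each library left out in turn, and 5 with a log2 change of at least 0.5 required, a rule added after seeing the data. The count of mitochondrial genes higher was 0 to 1 with each library left out, and without abemaciclib replicate 2 its 1 gene was HARS2 in place of EARS2. Pairs with a lower ratio and no overlap numbered 6 with a prior count of 5, and 7 to 9 with each library left out. For partners the count higher was 1 with no filter on low counts and 0 to 1 with each library left out. For cytosolic elongation the count lower was 0 with DESeq2 and 0 to 2 with each library left out. For tRNA processing the count higher was 0 with DESeq2, 2 with no filter and 0 to 2 with each library left out. The cause of these shifts was not tested. Sign changes occurred only in genes never called: with each library left out, the log2 change ran from −0.22 to 0.083 for FARSA, −0.012 to 0.41 for VARS1, −0.34 to 0.031 for FARS2, −0.23 to 0.39 for PARS2, −0.25 to 0.14 for RARS2, −0.037 to 0.26 for TARS2, −0.12 to 0.32 for WARS2 and −0.017 to 0.23 for YARS2. With replicate number as a block, 8 cytosolic genes were lower and 1 mitochondrial gene higher, PARS2 was at −0.018, and no call of a synthetase gene changed. The low counts of most mitochondrial genes limit what could be detected in them.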

Other observations

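A second motif, the E-box CACGTG, which reads the same on both strands and is bound by MYC and related factors, was found in the RefSeq windows of 3 of 14 mitochondrial genes (CARS2, EARS2 and MARS2), or 21.4%, and of 1 of 16 cytosolic genes (IARS1), or 6.25%. Of all genes with a window, 8.77% held it, and of those also tested, 13%. In EARS2, the 1 mitochondrial gene that rose, the stretch around it lies on the minus strand at chr16:23557348-23557377 of GRCh38.p14, with the E-box in capitals.
EARS2: cagggagaagccCACGTGtgctattccatc

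Of the E2F sites TTTGGCGC and TTTCCCGC, searched on both strands, 1 of 16 cytosolic genes (TARS1) and 1 of 14 mitochondrial genes (RARS2) held a match, against 4.86% of the genes tested. TARS1 held both an E2F match and a CARE, but in windows of different start sites. Their stretches lie at chr5:33440561-33440590 and chr5:33440956-33440985.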
